A study of Homo sapiens with 6 samples.

Results

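The mitotic G2/M genes are 56 genes whose products carry a cell through mitosis, and they were examined in MOLM-14 cells, a human line of acute myeloid leukaemia with an MLL-AF9 rearrangement. They were chosen by function, as kinesins, kinetochore and centromere proteins, checkpoint proteins, passenger proteins, spindle-associated proteins, cytokinesis factors, anaphase regulators, mitotic kinases and phosphatases, chromosome structure proteins and transcription factors. Of the probe sets annotated to a gene alone, the brightest on average over the arrays stood for that gene. All 56 were measured, out of 19775 genes on the arrays. Triplicate wells of these cells received 10 nM cortistatin A (CA), an alkaloid that blocks CDK8 and CDK19, which belong to the Mediator complex, or the vehicle DMSO, each for 24 h. RNA of the 3 CA and 3 DMSO samples was hybridised to 1 Affymetrix U133 Plus array each, and both groups were of the same line and carried no other labelled agent. The line is a single leukaemia model, and the labels name no cells other than these. The comparison of CA with DMSO asks which transcripts change when the Mediator kinases are inhibited.

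Transcripts of mitotic genes are low in G1 and accumulate in G2, so that in a growing culture their level follows both the number of cells close to mitosis and the output per cell. Many of their promoters are known to carry a cell cycle genes homology region (CHR), which the MuvB core binds through LIN54. With the pocket proteins RBL1 or RBL2 and E2F4 or E2F5 this core forms the repressive DREAM complex, and with MYBL2 and FOXM1 it activates the same genes in G2. At the protein level, CDK1 with cyclin B drives entry into mitosis, WEE1 and PKMYT1 hold it back, and CDC25 phosphatases release it. In these bulk samples fewer cells in G2 or mitosis and less RNA per cell cannot be told apart.

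After CA, KIF20A, CENPE and DLGAP5 fell and BUB3 and CDC25C rose among the 56 genes. Calls were made at a Benjamini-Hochberg adjusted p under 0.05, from limma fitted to all 19775 genes. The 3 lower members are 5.36% of the list, against 4.49% of all genes called lower, and the 2 higher members are 3.57%, against 6.64% of all genes called higher. In this fit the shares were thus close to or below those of all genes, but with an intensity trend and robust moderation 17 members (30.4%) were called lower, against 8.57% of all genes. Changes were small throughout: on the log2 scale they lay between -0.36 (KIF20A) and 0.25 (CDC25C), with a median of -0.06, against -0.00 for all genes. Of the 56 members, 42 (75%) were below 0 and 14 above, against 51.2% of all genes below 0. In 25 members (44.6%) all 3 CA arrays lay below all 3 DMSO arrays, an order found in 15.2% of all genes. The opposite order was seen in 6 members (10.7%), which were KIF2C, BUB1, BUB3, CDC25C, HMMR and SMC4, and in 16.6% of all genes. Members are brighter and vary less than most genes (median SD within groups 0.0372, against 0.0756 over all genes). The shares with separate groups among genes of like level were not taken, here or in the function classes. With any 1 array left out, KIF20A and CENPE were the 2 members called lower, and the number called higher was 0 without CA replicate 2 or DMSO replicate 3, 1 without CA replicate 3, DMSO replicate 1 or DMSO replicate 2, and 2 without CA replicate 1. In those fits 2.2% to 2.5% of all genes were called lower and 3.65% to 4.29% higher.

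**Figure D1:**
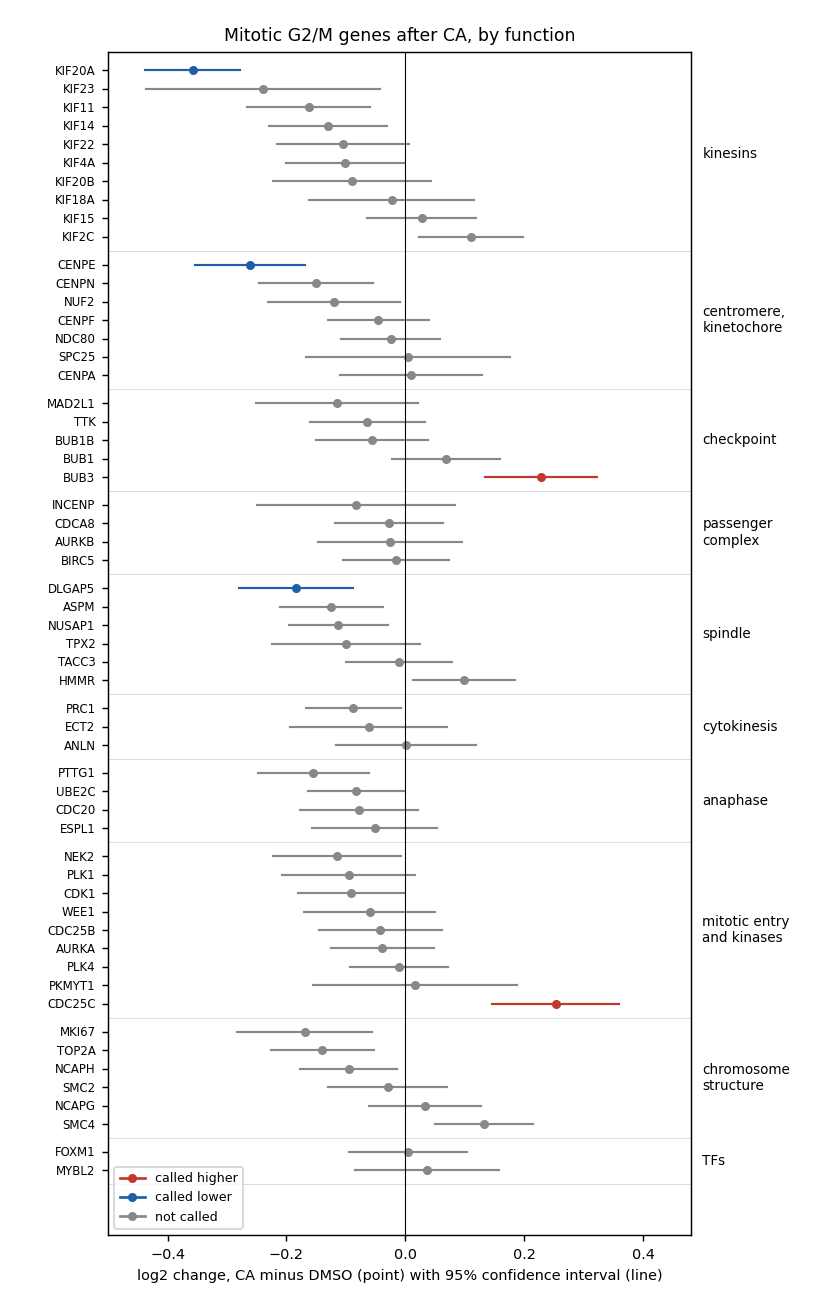
Log2 change of each member, CA minus DMSO (horizontal axis, log2 units), with its 95% confidence interval, grouped by function (TFs, transcription factors); blue marks genes called lower, red genes called higher and grey the rest. KIF20A at -0.36, CENPE at -0.26 and DLGAP5 at -0.18 are the called falls, BUB3 at 0.23 and CDC25C at 0.25 the called rises.

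The 6 arrays had medians of 5.59 to 5.62 on the log2 scale, and the correlation across probe sets was 0.998 within groups, against 0.996 to 0.997 between groups. Arrays have no read depth, so their number limits the precision. As a gauge of RNA integrity, GAPDH control probes at the 3' end exceeded those at the 5' end by 0.48 ± 0.05 in CA and 0.38 ± 0.025 in DMSO, and ACTB control probes by 2.38 ± 0.07 in CA and 2.27 ± 0.13 in DMSO (SD, n = 3 each, log2 units). The part of this difference in the small changes of the members was not tested. Of 10 measured leukaemic myeloid markers, 7 had a mean above 5.62, the highest of the array medians, which were taken over all probe sets. So did 0 of 4 T cell, 1 of 2 B cell, 2 of 2 erythroid, 1 of 3 platelet and 1 of 4 epithelial or stromal markers. Myeloid markers changed alongside the members: PTPRC was called lower at -0.59 (adjusted p = 0.00148), CSF1R at -0.39 (0.013) and CD4 at -0.21 (0.0489), and MEIS1 higher at 0.25 (0.0179). That made 3 of the 10 (30%) lower and 1 (10%) higher, against 4.49% and 6.64% of all genes. Of the 13 other settings tried, CD4 kept its call in 4. CSF1R lost its call without DMSO replicate 3 (0.052), CD4 without any array but DMSO replicate 3 (0.121 to 0.133), and MEIS1 without CA replicate 1, CA replicate 2, DMSO replicate 2 or DMSO replicate 3 (0.0628 to 0.0717). Of 11 reference genes, TFRC was called higher at 0.26 (0.00749) and HPRT1 lower at -0.21 (0.0131). Each call is 9.09% of the reference genes, against 6.64% higher and 4.49% lower among all genes. The call of HPRT1 was lost without CA replicate 3 (0.0539) or DMSO replicate 3 (0.0586). With the mean of all probe sets neither gene was called, TFRC being at 0.15 (0.0726) and HPRT1 at -0.03 (0.724). The other probe set of HPRT1, with means of 2.99 in CA and 2.83 in DMSO, was at 0.16. On the probe set of largest variance for each gene both calls were lost (TFRC 0.397, HPRT1 0.055).

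Among the members that fell, KIF20A, the kinesin that carries the chromosomal passenger complex to the central spindle at anaphase, read 9.35, 9.33 and 9.35 in the CA arrays, against 9.71, 9.69 and 9.70 in the DMSO arrays (log2 intensity). The 3 CA values were all below the 3 DMSO values, with an SD of 0.0096 in CA and 0.0061 in DMSO. The fall was -0.36 (SE 0.03, 95% confidence interval -0.44 to -0.28, adjusted p = 0.0014), a 1.28-fold lower level, and its call was kept in each of the 13 other settings tried and with each array left out. CENPE, a kinesin at the kinetochore that brings chromosomes to the spindle equator, read 9.53, 9.48 and 9.48 in CA, against 9.79, 9.77 and 9.72 in DMSO. The groups did not overlap, and the fall was -0.26 (SE 0.04, interval -0.35 to -0.17, adjusted p = 0.00844). That call, too, was kept in the 13 other settings and with each array left out. KIF20A and CENPE each had 1 probe set.

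DLGAP5, also called HURP, which stabilises the microtubule fibres that reach the kinetochores, read 10.30, 10.37 and 10.29 in CA, against 10.49, 10.53 and 10.49 in DMSO. Its groups were apart, at -0.18 (SE 0.04, interval -0.28 to -0.09, adjusted p = 0.0336). The call was lost with any 1 of the 6 arrays left out (adjusted p 0.0522 to 0.106). It was also lost when arrays were centred on their medians (0.0582), without the _x_at and _s_at probe sets (0.055), with the probe set of largest variance for each gene (0.104) and in the test of all probe sets (0.0666).

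BUB3, a checkpoint protein that recruits BUB1 and BUB1B to unattached kinetochores, read 13.62, 13.65 and 13.63 in CA, against 13.39, 13.46 and 13.37 in DMSO. All 3 CA values were higher than all 3 DMSO values, and the rise was 0.23 (SE 0.04, interval 0.13 to 0.32, adjusted p = 0.015). The 6 probe sets of BUB3 were all above 0, at 0.23 to 0.40, and 5 were called higher when every probe set was tested. The call on the brightest of them was lost without CA replicate 2, CA replicate 3, DMSO replicate 1 or DMSO replicate 3 (adjusted p 0.0553 to 0.0624).

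CDC25C, a phosphatase that removes inhibitory phosphates from CDK1, read 7.9998, 8.1113 and 8.0127 in CA, against 7.8151, 7.7907 and 7.7597 in DMSO. CA arrays were the higher ones without overlap, at 0.25 (SE 0.04, interval 0.15 to 0.36, adjusted p = 0.0167). Its other probe sets differed from this one: the second, with means of 6.14 in CA and 5.97 in DMSO, was at 0.17, and the dimmest, with means of 4.56 in CA and 4.61 in DMSO, was at -0.05. Neither of those was called, and the mean of the 3 was at 0.12 (adjusted p = 0.14). The call was lost without CA replicate 2 (adjusted p = 0.0506), DMSO replicate 2 (0.0564) or DMSO replicate 3 (0.068).

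**Figure D2:**
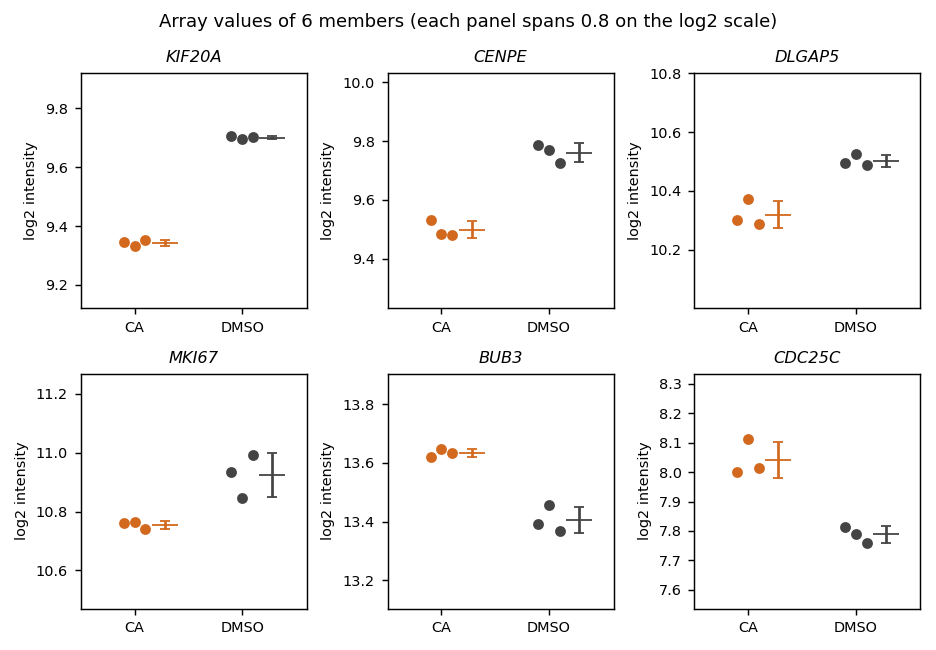
Log2 intensity of KIF20A, CENPE, DLGAP5, MKI67, BUB3 and CDC25C in each CA and DMSO array (points), with the group mean and SD (bar, n = 3) to the right of the points; all panels span the same height on the log2 scale. The CA arrays lie below the DMSO arrays for KIF20A (9.35, 9.33 and 9.35 against 9.71, 9.69 and 9.70), CENPE, DLGAP5 and MKI67, and above them for BUB3 and CDC25C.

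Promoter windows of the called members and MKI67 are printed here because MuvB binding is thought to set the G2 output of such genes. RefSeq windows on GRCh38.p14 run from 250 bases before to 50 after each gene start, so that base 251 is the start. They were found for 47 of the 56 members, with 62 windows, and not for WEE1, PKMYT1, AURKA, BUB3, TTK, UBE2C, BIRC5, TPX2 and FOXM1. Capitals mark matches to the CHR core TTTGAA, which reads TTCAAA on the other strand, and to its variants TTCGAA and TTTAAA, which read the same on both strands. They also mark the CCAAT box, which reads ATTGG on the other strand. Each sequence runs 5′ to 3′ on its gene's strand. The KIF20A window is chr5:138178862-138179161 on the plus strand, and those on the minus strand are CENPE at chr4:103198294-103198593, DLGAP5 at chr14:55191536-55191835, MKI67 at chr10:128126374-128126673 and CDC25C at chr5:138331828-138332127, the 1 of its 4 windows that held the most matches.
KIF20A: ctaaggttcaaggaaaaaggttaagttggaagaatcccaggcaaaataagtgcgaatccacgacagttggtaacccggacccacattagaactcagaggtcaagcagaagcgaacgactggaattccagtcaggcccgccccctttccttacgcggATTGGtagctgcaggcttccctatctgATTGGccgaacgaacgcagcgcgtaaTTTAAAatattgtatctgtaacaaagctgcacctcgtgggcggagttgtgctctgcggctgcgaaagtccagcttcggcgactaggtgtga
CENPE: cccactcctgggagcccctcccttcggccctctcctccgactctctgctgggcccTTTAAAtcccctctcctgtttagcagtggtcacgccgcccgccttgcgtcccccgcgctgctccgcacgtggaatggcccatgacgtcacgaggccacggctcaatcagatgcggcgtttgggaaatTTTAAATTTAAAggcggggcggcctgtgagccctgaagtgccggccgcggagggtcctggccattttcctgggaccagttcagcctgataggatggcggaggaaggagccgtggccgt
DLGAP5: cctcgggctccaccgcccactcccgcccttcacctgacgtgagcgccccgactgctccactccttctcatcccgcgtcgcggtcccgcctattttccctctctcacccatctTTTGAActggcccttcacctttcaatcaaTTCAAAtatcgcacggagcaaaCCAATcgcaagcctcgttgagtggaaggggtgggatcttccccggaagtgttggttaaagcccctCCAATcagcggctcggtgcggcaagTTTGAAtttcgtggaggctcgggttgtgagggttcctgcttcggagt
MKI67: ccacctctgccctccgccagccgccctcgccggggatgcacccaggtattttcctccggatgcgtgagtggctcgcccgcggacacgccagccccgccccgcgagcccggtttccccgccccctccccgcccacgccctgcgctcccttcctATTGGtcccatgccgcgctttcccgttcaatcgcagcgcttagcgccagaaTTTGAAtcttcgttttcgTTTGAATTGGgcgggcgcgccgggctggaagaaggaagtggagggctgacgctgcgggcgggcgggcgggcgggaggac
CDC25C: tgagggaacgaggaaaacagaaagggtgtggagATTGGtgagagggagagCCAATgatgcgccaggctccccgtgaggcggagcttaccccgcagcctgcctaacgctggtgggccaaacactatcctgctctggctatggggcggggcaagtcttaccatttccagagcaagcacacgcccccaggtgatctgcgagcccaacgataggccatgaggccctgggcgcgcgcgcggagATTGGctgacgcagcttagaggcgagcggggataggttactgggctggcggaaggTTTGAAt
The KIF20A window held TTTAAA from base 210 and ATTGG from bases 157 and 184, with no TTTGAA. The CENPE window held TTTAAA from bases 56, 183 and 189, with neither TTTGAA nor a CCAAT match. DLGAP5 had 3 CHR cores and 2 CCAAT boxes. MKI67 had 2 of each, and the TTTGAA nearer the start overlaps an ATTGG by base 227. CDC25C, which rose, had 1 CHR core, from base 294 and thus after the start, and 3 CCAAT matches, in the window picked for its matches. Whether a match goes with the direction of a change was not tested. Over all member windows, TTTGAA or its complement was in 38 of 62 (61.3%), against 12.3% of the 21490 windows of measured genes and 15.2% of all 35116 windows. The TTCGAA variant was in 5 of the 62 (8.06%), against 1.58% of the windows of measured genes, and TTTAAA in 15 (24.2%), against 9.8%. CCAAT or ATTGG was in 40 (64.5%), against 34.5%. Median GC content was 62% in member windows and 62.7% in those of measured genes. Some genes have several windows, which can overlap, and a match describes letters only.

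Among the 10 kinesins, motors that move along or take apart microtubules, KIF20A fell (10%) and none rose, against 4.49% and 6.64% of all genes. The kinesins had a median of -0.10. In 6 (60%) the CA arrays lay below the DMSO arrays, against 15.2% of all genes, and in 1 (10%) above, against 16.6%. KIF23, the motor of the centralspindlin complex, read 9.12, 9.43 and 9.34 in CA, against 9.49, 9.58 and 9.54 in DMSO. Those groups did not overlap, yet the difference of -0.24 was not called (interval -0.44 to -0.04, adjusted p = 0.128), and CA replicate 1 was lowest. Its other probe set was at -0.23, with 6.55, 6.57 and 6.64 in CA, against 6.85, 6.74 and 6.86 in DMSO. In limma KIF23 was called lower with the mean of its probe sets (adjusted p = 0.0372) and without the _x_at and _s_at probe sets (0.0421). KIF11, also called Eg5, which pushes the spindle poles apart, was at -0.16 (adjusted p = 0.0632), and KIF14, which acts in cytokinesis, at -0.13 (0.105). The chromokinesins KIF22 and KIF4A were at -0.10 each (0.225 and 0.191). KIF20B, another cytokinesis motor, was at -0.09 (0.386), KIF18A, which steadies chromosomes at the plate, at -0.02 (0.856), and KIF15, which can share the work of KIF11, at 0.03 (0.728). KIF2C, a depolymerase that corrects faulty attachments, was at 0.11 (0.115), with CA above DMSO in all arrays.

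Of the 7 centromere and kinetochore genes CENPE fell (14.3%) and none rose, against 4.49% and 6.64% of all genes. The median of the 7 was -0.05. CENPN, which reads the centromeric nucleosome, was at -0.15 (adjusted p = 0.0626), but its other 3 probe sets were above 0, at 0.04, 0.07 and 0.04. NUF2, a subunit of the microtubule-binding NDC80 complex, was at -0.12 (0.168). Other subunits of that complex differed less, with NDC80 at -0.02 (interval -0.11 to 0.06) and SPC25 at 0.00 (-0.17 to 0.18). CENPF, a large kinetochore protein, was at -0.05 (0.494), and CENPA, the histone H3 variant that marks centromeres, at 0.01 (interval -0.11 to 0.13). In CENPE, CENPN, NUF2 and CENPF (57.1%) all CA values were below all DMSO values, an order found in 15.2% of all genes.

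In the spindle assembly checkpoint, BUB3 rose (20% of 5 members, against 6.64% of all genes) and the other 4 members were not called. BUB1, the kinase that binds BUB3, was at 0.07 (adjusted p = 0.326), and its other 4 probe sets lay between -0.20 and 0.04. BUB1B, or BubR1, which inhibits the anaphase-promoting complex, was at -0.06 (0.443), MAD2L1, which captures CDC20, at -0.12 (0.272), and TTK, the kinase that starts the checkpoint, at -0.06 (0.39). The 4 genes of the chromosomal passenger complex were not called, and in each the groups overlapped. In 31.8% of all genes the groups did not overlap. AURKB, its kinase, was at -0.03 (interval -0.15 to 0.09), BIRC5, or survivin, at -0.02 (-0.11 to 0.07), CDCA8, or borealin, at -0.03 (-0.12 to 0.06), and INCENP, its scaffold, at -0.08 (-0.25 to 0.08).

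Among 6 spindle-associated genes, DLGAP5 fell (16.7%, against 4.49% of all genes) and the median of the 6 was -0.11. ASPM, which focuses spindle poles, was at -0.12 (adjusted p = 0.0795), NUSAP1, which bundles microtubules near chromatin, at -0.11 (0.0962), and TPX2, the activator of aurora A, at -0.10 (0.297). In all 3 the CA values were below the DMSO values, an order found in 15.2% of all genes. TACC3, which cross-links spindle fibres, was at -0.01 (0.903), and HMMR, another microtubule-binding spindle protein, was at 0.10 (0.143), with CA above DMSO. The 3 cytokinesis genes were not called: PRC1, which bundles the central spindle, was at -0.09 (0.163), ECT2, the exchange factor for RhoA, at -0.06 (0.562), and the scaffold ANLN at 0.00 (interval -0.12 to 0.12).

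None of the 4 anaphase genes was called. All were below 0, against 51.2% of all genes. In 3 (75%) the CA arrays lay below the DMSO arrays, against 15.2% of all genes. PTTG1, or securin, the inhibitor of separase, was at -0.15 (interval -0.25 to -0.06, adjusted p = 0.0527). UBE2C, the ubiquitin-conjugating enzyme of the anaphase-promoting complex, was at -0.08 (0.19), its activator CDC20 at -0.08 (0.304), and ESPL1, separase itself, at -0.05 (0.535). Among the 9 genes of mitotic entry, CDC25C rose (11.1%, against 6.64% of all genes) and the others were not called. CDK1 was at -0.09 (interval -0.18 to -0.00, 0.192), with CA arrays below DMSO arrays. NEK2, which separates centrosomes, was at -0.12 (0.17) and on its other probe set at 0.02. Of the other kinases, the polo kinase PLK1 was at -0.10 (0.268) and aurora A (AURKA) at -0.04 (0.577). WEE1 was at -0.06 (0.491), CDC25B at -0.04 (0.616), PLK4, which starts centriole duplication, at -0.01 (0.887), and PKMYT1 at 0.02 (0.922).

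None of the 6 chromosome structure genes was called on its brightest probe set in the default fit. TOP2A, the topoisomerase that untangles sister DNA, was at -0.14 (adjusted p = 0.0572), and the condensin subunit NCAPH at -0.10 (0.142). Other condensin subunits lay on both sides of 0, with SMC4 at 0.13 (0.0598, CA above DMSO in all arrays), NCAPG at 0.03 (0.676) and SMC2 at -0.03 (0.727). Neither transcription factor that activates this programme was called: FOXM1 was at 0.00 (interval -0.09 to 0.10) and MYBL2 at 0.04 (-0.08 to 0.16).

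MKI67, which encodes Ki-67, the coat of mitotic chromosomes and the usual marker of dividing cells, gave a different answer by probe set. On the brightest it read 10.76, 10.76 and 10.74 in CA, against 10.93, 10.85 and 10.99 in DMSO, at -0.17 (interval -0.28 to -0.06), and was not called (adjusted p = 0.0737 over genes). Its other 3 probe sets fell in the test of all 41091 probe sets, with changes of -0.39, -0.35 and -0.34 (adjusted p 0.00563 to 0.00949). The dimmest of these read 7.75, 7.65 and 7.67 in CA, against 8.07, 8.06 and 8.12 in DMSO, without overlap. With the mean of all 4 probe sets, MKI67 fell by 0.31 on the log2 scale (adjusted p = 0.00351). The members had 110 probe sets in all, and 29 members had more than 1. In 12 of those 29 all probe sets were below 0, in 6 all were above, and in 11 they lay on both sides. Of the 110, 5 (4.55%) were called lower, from KIF20A, CENPE and MKI67, against 2.72% of the probe sets tested. The 6 (5.45%) called higher came from BUB3 and CDC25C, against 3.83% of the probe sets tested. Probe sets of 1 gene share their transcript.

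**Figure D3:**
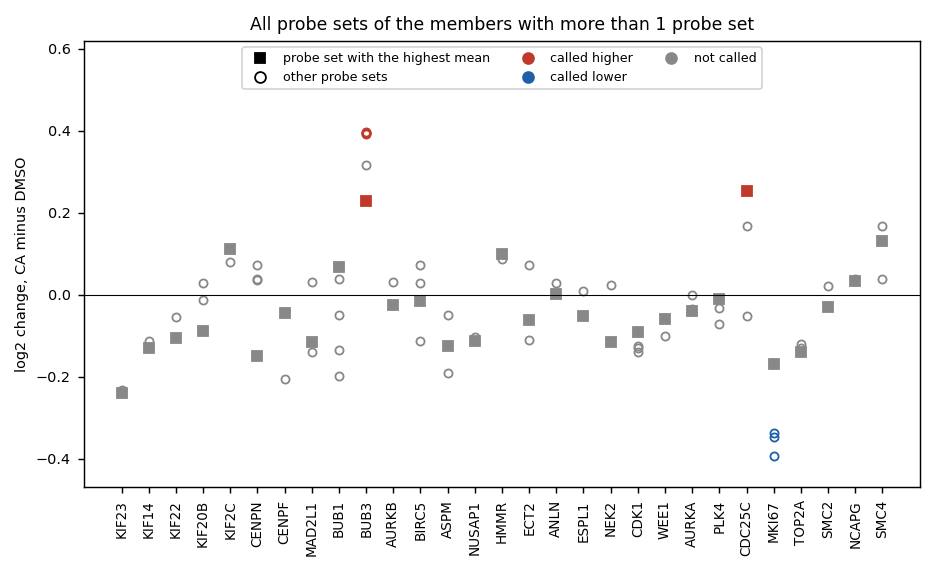
Log2 change, CA minus DMSO (vertical axis), of every probe set of the 29 members with more than 1; filled squares are the probe set with the highest mean, open circles the others, and blue, red and grey mark called lower, called higher and not called. MKI67 has 3 called probe sets between -0.39 and -0.34, and BUB3 has 5 called probe sets above 0.

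Across arrays, the median member deviated from its DMSO mean by -0.07, -0.06 and -0.04 in CA replicates 1, 2 and 3, and by -0.01, 0.01 and 0.00 in DMSO replicates 1, 2 and 3. In the CA arrays 47, 41 and 37 of the 56 members were below their DMSO mean, against 35, 24 and 26 in the DMSO arrays, which enter that mean. The median was thus below 0 in all 3 CA arrays, and furthest in CA replicate 1. In CA replicate 3 the 37 members below were close in number to the 35 in DMSO replicate 1. Like counts over all genes were not made.

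**Figure D4:**
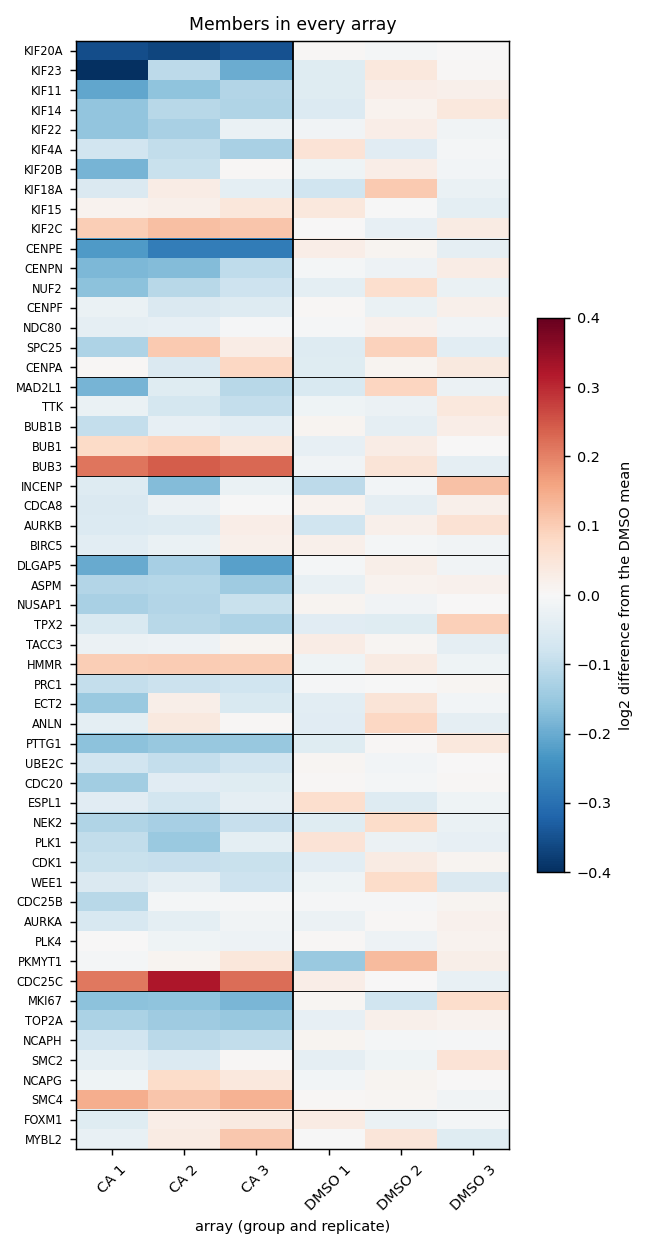
Log2 difference of each member (rows, in function order) from its DMSO mean in each of the 6 arrays (columns), blue below and red above. The CA columns are mostly pale blue, with 47, 41 and 37 of 56 members below the DMSO mean, and KIF20A, CENPE, BUB3 and CDC25C stand out in all 3.

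The number of calls depended on how limma estimated the spread. Members are bright, each with a mean log2 of at least 6, and the median SD within groups was 0.0372 over members, against 0.0756 over all genes and 0.0515 over genes of at least that mean. When the prior spread was allowed to follow intensity, with robust moderation, 17 members (30.4%) were called lower and 5 (8.93%) higher, against 8.57% and 10.7% of all genes. The 17 were CDK1, NEK2, UBE2C, PTTG1, KIF11, KIF14, KIF20A, KIF23, CENPE, CENPN, NUF2, NUSAP1, DLGAP5, ASPM, PRC1, MKI67 and TOP2A, of which CENPN and NEK2 had probe sets on both sides of 0. The 5 were CDC25C, BUB3, KIF2C, HMMR and SMC4. By function that gave 4 kinesins lower and 1 higher, 3 kinetochore and 3 spindle genes lower, and no passenger gene called. With a floor on the mean log2 of 6, 13 members (23.2%) were called lower and 5 (8.93%) higher, against 14% and 17.4% of the genes kept. Fold changes are the same in all these fits. Only the error estimate differs, and under the floor also the set of genes tested.

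Of 65 measured other G2/M genes, 5 (7.69%) fell, against 4.49% of all genes, and 3 (4.62%) rose, against 6.64%, with a median of -0.05. PSRC1, a microtubule-binding spindle protein, fell by 0.40 (adjusted p = 0.00493), and SKA2, of a complex that tracks microtubule ends, fell by 0.33 (0.02). PIMREG fell by 0.20 (0.0293) and cyclin B2 (CCNB2), a partner of CDK1, fell by 0.19 (0.0278), although the probe set of CCNB2 with the largest variance was at 0.11. NSL1, a kinetochore gene at -0.18 (0.0311), and CDCA2 at 0.16 (0.0383) were named after their values were seen. The other rises were PBK, a mitotic kinase, at 0.28 (0.00791) and OIP5, which helps load CENPA, at 0.21 (0.0183). The calls of PSRC1 and PBK were kept with each array left out. Without any 1 array, CCNB2 and PIMREG lost theirs (adjusted p 0.0535 to 0.1), and 1 or 2 of the 65 genes were called lower and 1 or 2 higher. SKA2 lost its call without CA replicate 1, CA replicate 2, DMSO replicate 1 or DMSO replicate 3 (0.0597 to 0.0756), and OIP5 without any array but DMSO replicate 2 (0.0501 to 0.0713).

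Among 16 subunits and regulators of the anaphase-promoting complex, which ends mitosis, 3 (18.8%) fell, against 4.49% of all genes, and 1 (6.25%) rose, against 6.64%. ANAPC13 fell by 0.37 (adjusted p = 0.00169), but its other probe set, with means of 3.69 in CA and 3.58 in DMSO, was at 0.10. FBXO5, or EMI1, the inhibitor of the complex, fell by 0.21 (0.0368), CDC26 fell by 0.19 (0.0294), and CDC16 rose by 0.17 (0.026). With each array left out in turn, ANAPC13 kept its call, while FBXO5, CDC26 and CDC16 lost theirs without any 1 array (adjusted p 0.0634 to 0.11).

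Of 11 genes of the DREAM and MuvB complexes, 3 (27.3%) rose, against 6.64% of all genes, and none fell. With 1 array left out, 1 or 2 of them were called higher. LIN54, the subunit that binds the CHR, read 7.0765, 7.4452 and 7.4022 in CA, against 6.1895, 6.1589 and 5.9983 in DMSO, with no overlap. That rise of 1.19 (SE 0.11, adjusted p = 0.0012), or 2.29-fold, was kept in all settings, on a single probe set. TFDP2, a partner of E2F factors, rose by 0.45 (0.0287), and E2F5, which represses in the DREAM complex, by 0.19 (0.0246), but the other probe set of E2F5, with means of 3.29 in CA and 3.47 in DMSO, was at -0.17. E2F5 lost its call without any 1 array (adjusted p 0.0584 to 0.088), and TFDP2 without any CA array or DMSO replicate 2 (0.0703 to 0.0923). CDKN1B, or p27, which holds cyclin-dependent kinases inactive, read 11.46, 11.53 and 11.59 in CA, against 10.85, 10.96 and 10.89 in DMSO, and rose by 0.63 (0.000708). CDKN1A, or p21, with a like function, read 9.96, 9.96 and 9.95 in CA, against 10.41, 10.47 and 10.32 in DMSO, and fell by 0.45 (0.00269). These calls of CDKN1B and CDKN1A were kept with each array left out.

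The 42 measured S phase genes were mostly above 0. Of them, 9 (21.4%) rose, against 6.64% of all genes, and 2 (4.76%) fell, against 4.49%. Their median was 0.06, and 12 (28.6%) were below 0, against 42 of 56 (75%) of the mitotic genes. In 22 of the 42 (52.4%) the CA arrays lay above the DMSO arrays, against 16.6% of all genes, and in 6 (14.3%) below, against 15.2%. CCNE1, which drives entry into S phase, rose by 0.27 (adjusted p = 0.0082) and PRIM1, a primase subunit, by 0.23 (0.0127), while CCNE2 fell by 0.25 (0.0188). The DNA polymerase subunit POLE2 rose by 0.22 (0.0264), and the clamp loader subunits RFC2 and RFC4 were called higher at 0.22 (0.0326) and 0.17 (0.0392). These last 3 calls were lost without any 1 array (0.0543 to 0.124). TK1, a thymidine kinase chosen after its value was seen, fell by 0.15 (0.048). With 1 array left out, 1 or 2 S phase genes were called higher and 0 or 1 lower. CCNE1 kept its call with each array left out but not with the mean of its probe sets (0.10, adjusted p = 0.228), the other of which was at -0.08. By the same check, PRIM1 lost its call without DMSO replicate 3 (0.0538), and CCNE2 lost it without any 1 CA array (0.057 to 0.0675). The difference between these lists was not tested.

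**Figure D5:**
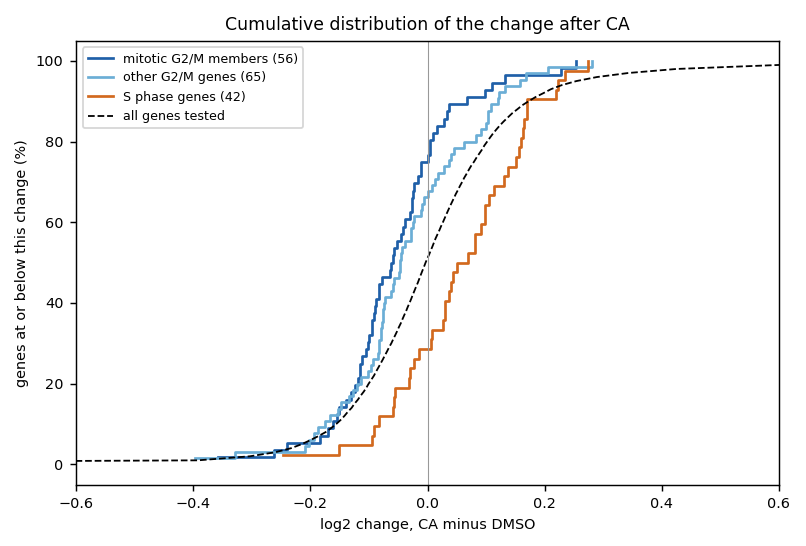
Percent of genes (vertical axis) at or below each log2 change, CA minus DMSO (horizontal axis), for the 56 mitotic members, the 65 other G2/M genes, the 42 S phase genes and all genes tested (dashed). At 0 the member curve stands at 75% and the S phase curve at 28.6%, against 51.2% for all genes.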

How the data were processed

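RNA of 3 CA and 3 DMSO wells of MOLM-14 cells was measured on 1 array each. The values the authors deposited are on the log2 scale, 1 per probe set and array. Per the submitters' processing notes they come from RMA and affy. Their versions and the set of arrays normalized together were not given in the sources used here. RMA corrects background, normalizes probes by quantiles and summarises probe sets, and it compresses large fold changes. Per the labels' protocols RNA came from either of 2 kits, and which sample had which is not given.

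Probe sets were named by the platform annotation, with symbols updated through a RefSeq gene table (GRCh38.p14), and those with several symbols were not used, among them 1 that names CENPA. A linear model (limma 3.58.1 under R 4.3.3, with eBayes at its defaults, 2-sided, no covariates) was fitted to all 19775 genes, with Benjamini-Hochberg adjustment over them, and p-values beside named genes are from this fit. No filter on level was applied. Groups follow the labels, and the p-values reflect only how far these wells differ, which may be technical. On simulated data with 50 changed genes per size, the fit recovered 32% at a log2 change of 0.25, 66% at 0.5 and 94% at 1. Far fewer genes were changed there than were called in the data (888 lower and 1314 higher). They were drawn from all genes, whose median SD was 0.0756, against 0.0372 over members. These shares therefore do not give the power for the members.

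The text names every member and, of each other list, up to 6 called genes of largest change. Members and lists were chosen with earlier results of these data known. Alternatives changed the probe set, filter, scaling, moderation, array weights, replicate block, threshold and the arrays used. A trend alone and robust moderation alone were added after seeing the data.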

Additional observations from a re-analysis of the deposited data

How the results depend on the processing

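Members called lower numbered 3 as reported and 5 with the mean of all probe sets (3.63% of all genes), 6 after a second quantile normalization (4.97%), 10 with a mean log2 of at least 5 (9.42% of the genes kept were lower), 13 with at least 6 (14%), 17 with an intensity trend and robust moderation (8.57%), 18 with the trend alone (8.58%), a setting chosen after seeing the data, and 10 at an adjusted p under 0.1 (7.24% of all genes). Members called higher numbered 2 as reported and 1 with the mean of all probe sets (5.23% of all genes), with the probe set of largest variance (4.25%) or without the _x_at and _s_at probe sets (43 members measured, 4.5%), 5 with a mean log2 of at least 6 (17.4%), with trend and robust moderation or with the trend alone (10.7% each), and 0 at an adjusted p under 0.01 (2.9%). The cause of these shifts was not tested. Under a filter fewer genes are tested and the prior spread is also estimated anew from the genes kept. With 1 array left out, 2 members were lower and 0 to 2 higher, and the median change was -0.0737 to -0.0478, against -0.0606 as reported. With replicate numbers as a block, 2 members were lower (2.03% of all genes) and 0 higher (3.62%); the same-numbered samples correlated at 0.023, 0.030 and 0.024 in their deviations, so they share only a number. Directions turned for CDC25C without those probe sets (-0.0519, adjusted p = 0.63), CCNB2 (0.11, 0.548) and E2F5 (-0.17, 0.387) on the probe set of largest variance, and ANAPC13 without those probe sets (0.10, 0.666). Of 1051 values of members under alternatives, 965 kept their side of the threshold and 64 gained a call. A call was lost with its sign kept in 21. In 1, CDC25C without the _x_at and _s_at probe sets, the call was lost and the sign turned. Sign changes of uncalled values are counted among the 965. Called in at least 1 alternative were 18 members uncalled as reported, and 0 were called in opposite directions. The arrays' number limits how small a change can be called.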

Other observations

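KIF20A and CDC25C lie close together on chromosome 5, with 2 coding genes between them, and were called in opposite directions. KIF20A was at -0.36 (adjusted p = 0.0014 in limma) and CDC25C at 0.25 (0.0167). The genes between them were not called: CDC23, a subunit of the anaphase-promoting complex, was at 0.12 (0.0971), and GFRA3, a growth factor receptor, at -0.11 (0.532), with means of 5.36 in CA and 5.47 in DMSO. The neighbours on the outer sides, BRD8 at -0.08 (0.187) and FAM53C at 0.10 (0.228), were not called either.

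Of 14 genes of cohesin and its relatives, which hold sister chromatids together, SMC6 rose and none fell, with a list median of -0.03. The 1 rise is 7.14% of the list, close to the 6.64% of all genes called higher, and 4.49% of all genes were called lower. SMC6, of the complex with SMC5 that acts in DNA repair, read 9.83, 9.78 and 9.77 in CA, against 9.49, 9.48 and 9.39 in DMSO. Its rise of 0.34 (adjusted p = 0.00466 in limma) was kept with each array left out, and both of its probe sets were called higher when probe sets were tested.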
